A study of Mus musculus with 8 samples.

Results

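Dlk1 high fibro/adipogenic progenitors (FAPs) were described in 2 single-cell libraries, from muscle of a dysferlin knockout (KO) and of wild type (WT) mice. FAPs are stromal cells that lie between the fibres of skeletal muscle and carry the receptor PDGFRα. A droplet barcode, which stands for 1 cell, counted as Dlk1 high where it held at least 3 unique molecular identifiers (UMIs, each a counted RNA molecule) of Dlk1, with at least 1 UMI of Pdgfra, at least 500 genes and at most 10% of UMIs from mitochondrial genes. These criteria found 88 of the 3797 deposited barcodes, 58 in the KO library and 30 in the WT library. The members were chosen by their Dlk1 and Pdgfra UMIs, so those levels are a description. They were set against the barcodes of the same library that passed the same filter and held 0 Dlk1 UMIs, 1305 in the KO library and 1469 in the WT library.

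The animals of both groups were 8-month-old female mice. The KO animals, which lack the membrane repair protein dysferlin, carry the strain label BLA/J, written B6A/J in the protocol text, and the WT animals are C57BL/6. Hindlimb muscles were digested with collagenases and dispase, live PDGFRα+ 7AAD- single cells were sorted, and libraries were prepared with the droplet-based 10x 3′ kit, version 3. The labels list 4 samples in each group, but each group's values stand in 1 pooled matrix with no map of barcodes to animals. There is therefore 1 library per group, no test between groups is possible, and effects of dysferlin genotype, of strain and of library handling cannot be told apart. All intervals below are exact 95% intervals for counting error only, since barcodes of 1 library are not replicates.

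Dlk1 encodes a transmembrane protein related to the Notch ligands, known as preadipocyte factor 1, that is shed from the cell surface and restrains adipocyte differentiation. The gene is imprinted: it is expressed from the paternal chromosome, while its neighbours Meg3 and Mirg, which make noncoding RNAs, are expressed from the maternal chromosome. Dlk1, Mest, Peg3, Plagl1 and Igf2 belong to a group of imprinted growth genes that are high in fetal tissues and decline after birth, and the zinc finger factor encoded by Plagl1 is known to regulate other imprinted genes. In muscle, FAPs give rise to fibroblasts and adipocytes and feed regenerating muscle stem cells with growth factors such as IGF1.

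The promoters of Dlk1 and of the 4 imprinted genes that were at least 2-fold higher in Dlk1 high barcodes of both libraries are shown here because these genes form the main pattern described below. Each window holds the 250 bases before the RefSeq start of the gene (build GRCm38.p6), read 5′ to 3′ on the gene's own strand. Capitals mark 2 motifs that were searched, both of which read the same on either strand and so were found on both at once: GGGGCCCC, a core that PLAGL1 is known to bind, and TGACGTCA, the cyclic AMP response element. The windows lie at chr12:109452573-109452822 (plus strand) for Dlk1, chr12:109540746-109540995 (plus) for Meg3, chr6:30737800-30738049 (plus) for Mest, chr7:6730420-6730669 (minus) for Peg3 and chr10:13090582-13090831 (plus) for Plagl1.
Dlk1: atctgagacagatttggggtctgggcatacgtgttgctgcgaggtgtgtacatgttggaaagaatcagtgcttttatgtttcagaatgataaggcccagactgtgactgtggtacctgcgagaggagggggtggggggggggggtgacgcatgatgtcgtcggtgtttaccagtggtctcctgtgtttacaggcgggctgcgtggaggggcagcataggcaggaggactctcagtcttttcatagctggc
Meg3: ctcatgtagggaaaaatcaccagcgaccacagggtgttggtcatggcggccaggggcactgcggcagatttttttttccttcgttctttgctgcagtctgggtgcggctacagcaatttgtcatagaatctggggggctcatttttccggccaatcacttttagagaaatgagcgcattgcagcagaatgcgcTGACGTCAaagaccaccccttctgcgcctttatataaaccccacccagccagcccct
Mest: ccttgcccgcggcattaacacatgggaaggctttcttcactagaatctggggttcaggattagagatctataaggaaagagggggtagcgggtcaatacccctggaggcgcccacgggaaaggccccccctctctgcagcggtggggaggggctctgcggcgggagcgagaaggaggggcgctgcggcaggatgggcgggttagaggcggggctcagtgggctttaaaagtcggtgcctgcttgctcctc
Peg3: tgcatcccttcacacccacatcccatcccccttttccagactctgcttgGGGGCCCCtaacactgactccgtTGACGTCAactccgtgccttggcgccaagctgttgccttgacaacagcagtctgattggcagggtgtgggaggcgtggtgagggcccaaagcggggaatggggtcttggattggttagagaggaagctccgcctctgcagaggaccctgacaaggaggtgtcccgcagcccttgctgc
Plagl1: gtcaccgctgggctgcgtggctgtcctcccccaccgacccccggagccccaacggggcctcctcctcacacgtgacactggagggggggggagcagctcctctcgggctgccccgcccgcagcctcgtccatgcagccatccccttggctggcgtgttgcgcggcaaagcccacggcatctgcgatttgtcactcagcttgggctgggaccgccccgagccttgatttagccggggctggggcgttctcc

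The Peg3 window held both motifs and the Meg3 window held TGACGTCA. Neither motif stood in the windows of Dlk1, Mest and Plagl1, which says only that these letters are absent from these bases. Among 32851 RefSeq windows of the same length, 0.889% held GGGGCCCC and 1.55% held TGACGTCA. The number of CpG dinucleotides was 19 in the Plagl1 window, 14 in the Mest window, 10 in the Meg3 window and 8 in each of the Dlk1 and Peg3 windows. The median over all 32851 windows was 6. Fewer CpG than in the Plagl1 window stood in 80.3% of them, and fewer than in the Dlk1 and Peg3 windows in 57.0%. The Mest window is the richest in CpG of 3 annotated for that gene, and Meg3 has 2.

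Dlk1 was carried by few barcodes in either library. Members held most of its UMIs, but the rule chose them by those UMIs, so this share is a description. Members were 4.04% of the 1435 KO barcodes that passed the filter (interval 3.08 to 5.19%) and 1.96% of the 1533 WT barcodes (1.32 to 2.78%). They held 482 of the 570 Dlk1 UMIs of the KO library, or 84.6%, and 359 of the 405 Dlk1 UMIs of the WT library, or 88.6%. The lowest, median and highest Dlk1 counts of a member were 3, 6 and 46 UMIs in the KO library and 3, 8.5 and 48 UMIs in the WT library. Of the KO members, 21 held 3 or 4 Dlk1 UMIs and 15 held at least 10. Of the WT members, 9 held 3 or 4 and 13 held at least 10. At the limit of the rule, 10 KO and 5 WT barcodes held exactly 3 Dlk1 UMIs, and 16 KO and 12 WT barcodes held exactly 2 and stayed outside.

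The share of members moved with depth. KO barcodes that passed the filter were deeper, with a median of 12717 UMIs, against 9177 UMIs in WT barcodes. When every barcode was thinned to 5000 UMIs before the rule was applied, members were 24 of 1263 KO barcodes (1.90%, 1.22 to 2.81%) and 21 of 1234 WT barcodes (1.70%, 1.06 to 2.59%). These overlapping intervals left out 172 KO and 299 WT barcodes that were shallower, and unthinned the same barcodes gave 4.12% in the KO library and 2.27% in the WT library. Within each library the members were close in depth to the Dlk1 0 barcodes: the median was 13628 UMIs in KO members against 12371 UMIs in KO Dlk1 0 barcodes, and 9875.5 UMIs in WT members against 9174 UMIs in WT Dlk1 0 barcodes. The members' counts summed to 846855 UMIs in the KO library and 356115 UMIs in the WT library, so WT values rest on fewer molecules.

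**Figure D1:**
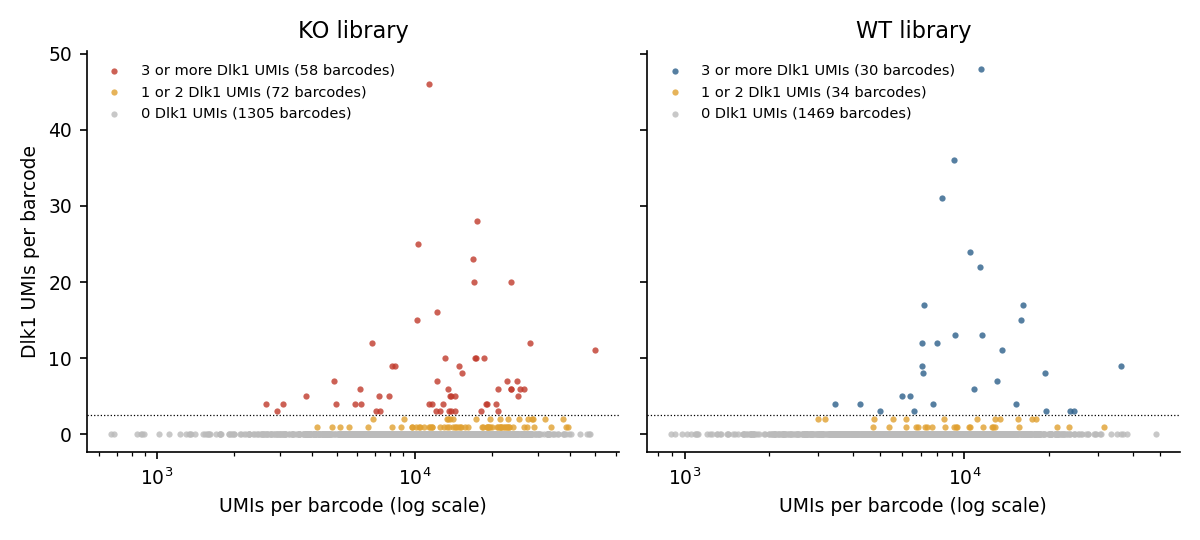
Dlk1 UMIs of each barcode (vertical axis, linear) against its total UMIs (horizontal axis, log scale) in the KO library (left) and the WT library (right), with a dotted line just under the rule's limit of 3 Dlk1 UMIs. The 58 KO and 30 WT members lie above the line and span a wide range of depths, from 2664 to 50027 UMIs in KO and from 3450 to 36332 UMIs in WT.

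All 10 FAP markers were detected in members, among them Pdgfra, which the rule required. Their summed level, in UMIs per 1000000 UMIs of the class (CPM), was 56526 in KO members against 57268 in KO Dlk1 0 barcodes, and 66886 in WT members against 62244 in WT Dlk1 0 barcodes. Single markers went both ways in both libraries. The proteoglycan gene Dcn was at 28112 CPM in WT members against 18684 CPM in WT Dlk1 0 barcodes, and Col1a1, a type I collagen gene, at 4403 CPM against 2134 CPM. Gsn, an actin-severing protein gene, was at 17337 CPM in WT members against 28803 CPM in WT Dlk1 0 barcodes, Dpt, a matrix protein gene, at 578 CPM against 1425 CPM, and the surface gene Ly6a at 629 CPM against 1435 CPM. Cd34, a surface gene of progenitors, was at 396 CPM in KO members against 685 CPM in KO Dlk1 0 barcodes and at 519 CPM in WT members against 919 CPM in WT Dlk1 0 barcodes. In KO members Col1a1 was at 6927 CPM against 4300 CPM in KO Dlk1 0 barcodes, and Gsn at 9162 CPM against 15953.5 CPM.

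Markers of other cell types stood above their level in Dlk1 0 barcodes for some lists and below it for others. Of 8 endothelial genes, Cdh5, Tie1, Cldn5, Emcn and Vwf were at 0 in members of both libraries, while the receptor gene Kdr was at 20.1 CPM in KO members against 2.52 CPM in KO Dlk1 0 barcodes and at 16.8 CPM in WT members against 5.77 CPM in WT Dlk1 0 barcodes. The endothelial list summed to 27.2 CPM in KO members against 21.0 CPM in KO Dlk1 0 barcodes, and to 19.7 CPM in WT members against 21.7 CPM in WT Dlk1 0 barcodes, and 2 KO members and 1 WT member held at least 3 of its UMIs. Ncam1 and Ngfr, surface genes of Schwann and other cells, were also higher in members. Ncam1 was at 59.0 CPM in KO members against 26.1 CPM in KO Dlk1 0 barcodes and at 50.5 CPM in WT members against 26.7 CPM in WT Dlk1 0 barcodes. Ngfr was at 10.6 CPM in KO members against 1.94 CPM in KO Dlk1 0 barcodes and at 59.0 CPM in WT members against 6.50 CPM in WT Dlk1 0 barcodes. The Schwann cell gene Sox10 was at 0 in every class.

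Of the 7 tenocyte markers 6 were detected in KO members, with Scx at 0, and all 7 in KO Dlk1 0 barcodes. Their sum was 1733 CPM in KO members against 928 CPM in KO Dlk1 0 barcodes. Most of it was Thbs4, at 1634 CPM against 895 CPM, which was detected in 52.6% of KO Dlk1 0 barcodes. Tnmd was at 69.7 CPM against 12.5 CPM and Fmod at 24.8 CPM against 16.3 CPM. Mkx and Kera gave 1 UMI each in KO members and Cilp2 gave 2. WT members held only Thbs4 of these 7, at a summed 545 CPM against 595 CPM in WT Dlk1 0 barcodes. The perineurial and endoneurial list, mostly Meox1, summed to 233 CPM in KO members against 173 CPM in KO Dlk1 0 barcodes and to 149 CPM in WT members against 129 CPM in WT Dlk1 0 barcodes. The mural list summed to 66.1 CPM in KO members against 55.9 CPM in KO Dlk1 0 barcodes and to 81.4 CPM in WT members against 63.5 CPM in WT Dlk1 0 barcodes. Myeloid markers summed to 7.09 CPM in KO members against 75.02 CPM in KO Dlk1 0 barcodes and to 8.42 CPM in WT members against 6.65 CPM in WT Dlk1 0 barcodes, with Ptprc at 0 in members. Satellite cell markers, mostly Msc, summed to 17.7 CPM in KO members against 28.0 CPM in KO Dlk1 0 barcodes. In WT they summed to 2.81 CPM in members against 25.3 CPM in Dlk1 0 barcodes, again mostly Msc. Pax7 was at 0 in every class of both libraries. Myofibre markers summed to 27.2 CPM in KO members against 40.7 CPM in KO Dlk1 0 barcodes and to 33.7 CPM in WT members against 38.7 CPM in WT Dlk1 0 barcodes. The lymphoid, mesothelial and adipocyte lists summed to at most 2.81 CPM in members of either library. The part of these cell types in the results below was not tested beyond leaving out barcodes with some of their markers, given at the end. That step used the endothelial, mural, myeloid, lymphoid, satellite cell and Schwann cell lists. Barcodes with tenocyte, perineurial and endoneurial, myofibre, mesothelial or adipocyte markers were not left out for those markers.

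Few barcodes outside FAPs were at hand to show the background of Dlk1. Among barcodes without Pdgfra that held endothelial or immune markers, at least 1 Dlk1 UMI was seen in 1 of 14 KO barcodes (7.14%, 0.181 to 33.9%) and in 0 of 50 WT barcodes (0 to 7.11%). Among the deeper Pdgfra barcodes it was seen in 9.06% in KO and 4.17% in WT. None of the 14 and none of the 50 reached 3 Dlk1 UMIs. The median depth of these barcodes, 4635 UMIs in KO and 3408.5 UMIs in WT, was lower than that of the members. A barcode sequence found in both libraries, 13 in all, included 1 member. Scrublet called 1 KO and 2 WT barcodes doublets, 1 of them a member. Dysf gave 1 UMI in KO members and 1 UMI in WT members, too few to check the genotype.

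Genes were compared by the sum of UMIs in the Dlk1 high and in the Dlk1 0 barcodes of a library. A gene counted as measured where its mean over both classes was at least 50 CPM, and 2-fold was the size criterion. Of 2999 genes measured in the KO library, 30 (1%) were at least 2-fold higher in Dlk1 high barcodes and 19 (0.634%) at least 2-fold lower. Of 2939 measured in the WT library, 118 (4.01%) were higher and 110 (3.74%) lower. Among the 2663 genes measured in both, 14 (0.526%) were higher in both libraries, which is 73.7% of the 19 genes (0.713%) so called in KO and 18.4% of the 76 (2.85%) called in WT. Lower in both were 13 genes (0.488%), or 72.2% of 18 (0.676%) in KO and 13.5% of 96 (3.6%) in WT. Among these 2663 genes, none called in KO was called the other way in WT. Bc1, Ccl2 and Comp, given further below, were past 2-fold in opposite directions but did not reach the measured level in WT. At 1.5-fold, 32 genes (1.2%) were higher and 53 (1.99%) lower in both. The spread over all measured genes was wider in the WT library, where 79.3% lay within 1.5-fold, against 93.9% in the KO library, and both medians were near 0 (0.04 on the log2 scale in WT).

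**Figure D2:**
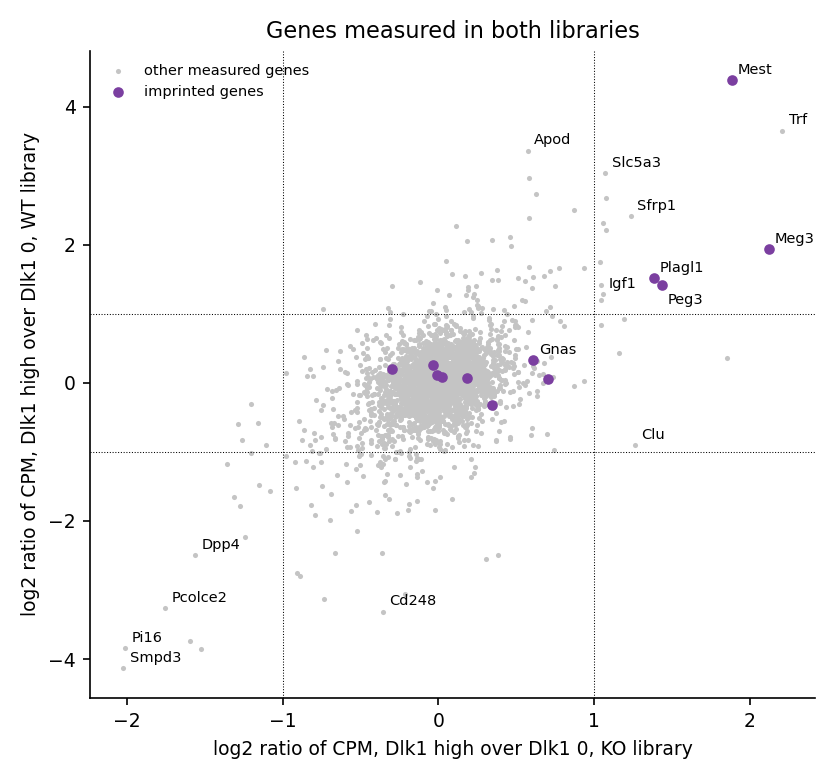
Log2 ratio of Dlk1 high over Dlk1 0 barcodes for the 2663 genes measured in both libraries, KO on the horizontal and WT on the vertical axis, with lines at 2-fold and named genes marked. Meg3, Mest, Peg3, Plagl1, Trf and Sfrp1 lie past 2-fold on the upper right, and Pi16, Smpd3, Pcolce2 and Dpp4 past 2-fold on the lower left.

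Meg3, the noncoding neighbour of Dlk1 on chromosome 12 (109541001 to 109571726, plus strand, GRCm38), stood out in both libraries. It was 4.35-fold higher in KO Dlk1 high barcodes, at 4114 CPM against 946 CPM in KO Dlk1 0 barcodes (log2 ratio 2.12, interval 2.07 to 2.17). In WT it was 3.83-fold higher, at 2272 CPM against 593 CPM (1.94, 1.83 to 2.04). Per barcode, scaled to 10000 UMIs, the lowest, median and highest Meg3 values were 0, 27.2 and 154 in KO members against 0, 5.14 and 124 in KO Dlk1 0 barcodes. The same values were 0, 20.02 and 73.1 in WT members against 0, 2.05 and 97.8 in WT Dlk1 0 barcodes. The ranges overlapped fully at the low end, and single Dlk1 0 barcodes held as much Meg3 as most members, while the medians lay far apart. Meg3 was detected in 56 of 58 KO and 29 of 30 WT members. After thinning to 3000 UMIs, which kept 56 KO and 30 WT members, it was detected in 94.6% of KO members against 61.1% of KO Dlk1 0 barcodes (unthinned 96.6% against 72.6%), and in 96.7% of WT members against 49.5% of WT Dlk1 0 barcodes (unthinned 96.7% against 61.9%). Non-FAP barcodes with endothelial or immune markers, thinned the same way, held a Meg3 UMI in 0 of 9 in KO and 3 of 29 in WT, at median depths of 18047 and 7262 UMIs. Meg3 overlaps Gm26906 on the opposite strand, and whether strand was used in counting is not given in the sources used.

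Mirg, the other maternally expressed RNA of the domain that gave enough UMIs to describe, had a ratio of the same size at far lower counts. It had 47 UMIs in KO members, or 55.5 CPM against 14.6 CPM in KO Dlk1 0 barcodes (1.93, 1.45 to 2.39), and 10 UMIs in WT members, or 28.1 CPM against 7.30 CPM in WT Dlk1 0 barcodes (1.94, 0.84 to 2.88). Begain, a gene next to Dlk1, gave 7 KO and 3 WT UMIs and its ratios of 0.48 and 1.85 had intervals that crossed 0. Dio3, the deiodinase gene at the far end of the domain, gave 9 UMIs in KO members and 4 in WT members. The paternally expressed Rtl1 was at 0 in members of both libraries. Rian is not analysed here.

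Mest, Peg3 and Plagl1, imprinted genes on other chromosomes, were higher in members of both libraries. Mest (chromosome 6, 30723547 to 30748465), a paternally expressed gene of the hydrolase fold family that is abundant in fetal mesoderm, was at 169 CPM in KO members against 45.7 CPM in KO Dlk1 0 barcodes (1.88, 1.62 to 2.14). Its level was 567 CPM in WT members against 27.2 CPM in WT Dlk1 0 barcodes (4.38, 4.13 to 4.64), a 20.9-fold ratio. A single member gave 41.3% of the Mest UMIs of the KO members, and without it the KO ratio was 1.15. In WT the highest member gave 22.8%, and the ratio without it was 4.11. Mest was unevenly spread: scaled to 10000 UMIs, its lowest, median and highest values were 0, 0.59 and 34.7 in KO members against 0, 0 and 15.7 in KO Dlk1 0 barcodes, and 0, 1.33 and 18.7 in WT members against 0, 0 and 11.5 in WT Dlk1 0 barcodes. Copg2, which overlaps Mest on the other strand, had ratios of 0.21 in KO and -0.07 in WT.

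Peg3 (chromosome 7, 6703892 to 6730431, minus strand), which encodes a paternally expressed zinc finger protein, had nearly the same levels in both libraries. It was at 252 CPM in KO members against 93.0 CPM in KO Dlk1 0 barcodes (1.43, 1.22 to 1.64) and at 253 CPM in WT members against 94.5 CPM in WT Dlk1 0 barcodes (1.42, 1.09 to 1.73). Plagl1 (chromosome 10, 13060504 to 13131694) was at 222 CPM in KO members against 85.1 CPM in KO Dlk1 0 barcodes (1.38, 1.16 to 1.60). In WT members it was at 104 CPM against 36.4 CPM in WT Dlk1 0 barcodes (1.51, 0.99 to 2.00), from 37 UMIs. Both genes were detected in a minority of the thinned members. Peg3 was seen in 41.1% of KO members against 16.5% of KO Dlk1 0 barcodes and in 36.7% of WT members against 16.4% of WT Dlk1 0 barcodes, and unthinned in 60.3% against 30.2% in KO and 56.7% against 29.3% in WT. Plagl1 was seen in 39.3% of KO members against 18.6% of KO Dlk1 0 barcodes and in 20% of WT members (interval 7.71 to 38.6%) against 9.23% of WT Dlk1 0 barcodes, and unthinned in 58.6% against 40.5% in KO and 50% against 20.6% in WT. In the thinned non-FAP barcodes with endothelial or immune markers, Peg3 stood in 0 of 9 KO and 2 of 29 WT, Mest in 0 of 9 and 2 of 29, and Plagl1 in none of either. At least 2 of Mest, Peg3 and Plagl1 were detected together in 15 of 56 thinned KO members (26.8%) against 8.32% of KO Dlk1 0 barcodes, and in 11 of 30 thinned WT members (36.7%) against 3.32% of WT Dlk1 0 barcodes.

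**Figure D3:**
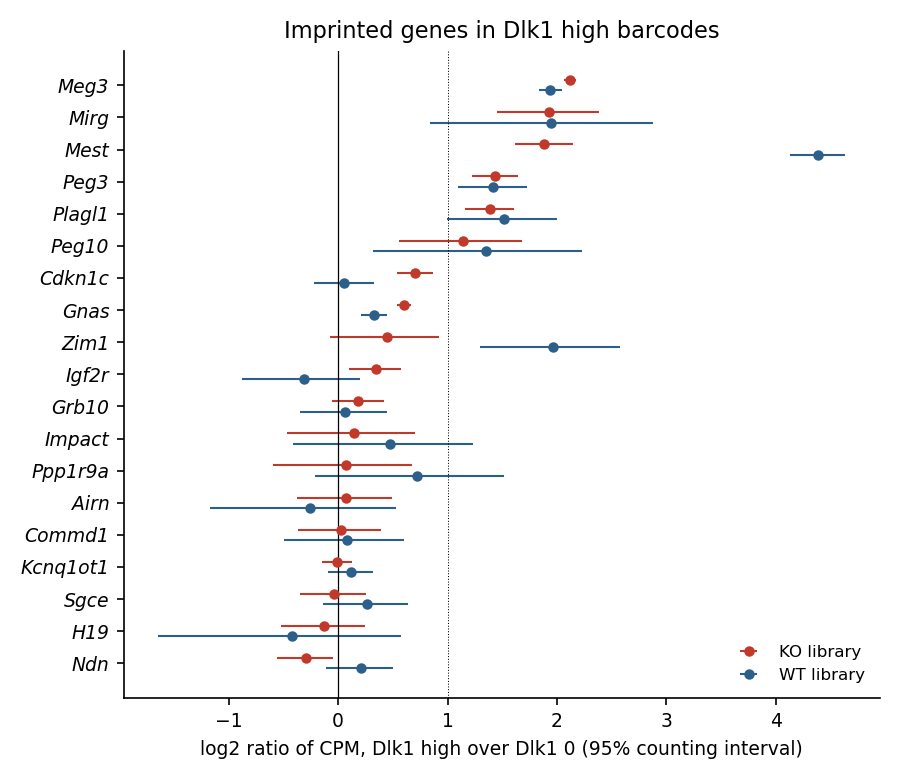
Log2 ratio of Dlk1 high over Dlk1 0 barcodes for imprinted genes in the KO and WT libraries, with exact 95% counting intervals, a solid line at 0 and a dotted line at 2-fold higher. Meg3, Mirg, Mest, Peg3 and Plagl1 lie above 0 with their intervals in both libraries, while Grb10, Kcnq1ot1 and Sgce lie near 0.

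Most other imprinted genes did not differ by this much. Of 30 imprinted genes listed outside the Dlk1 domain, 29 are in the features table and 13 were measured in KO, where 5 (Mest, Peg3, Plagl1, Cdkn1c and Gnas) were at least 1.5-fold higher in members and 0 lower. Of 11 measured in WT, 3 (Mest, Peg3 and Plagl1) were higher and 0 lower. The same criterion was met upward by 2.97% of all measured genes in KO and 10.3% in WT, and downward by 3.1% and 10.3%. The list's median log2 ratio was 0.19 in KO and 0.21 in WT. Cdkn1c, which encodes a cyclin-dependent kinase inhibitor, had ratios of 0.70 in KO and 0.06 in WT, and the signalling gene Gnas 0.60 and 0.33. Zim1, next to Peg3, had 0.44 in KO (interval -0.08 to 0.93) and 1.97 in WT (1.30 to 2.58, from 24 UMIs). The growth inhibitory adaptor gene Grb10 stood at 0.19 and 0.06, Igf2r at 0.34 and -0.32, Ndn at -0.30 and 0.21, and H19 at -0.13 and -0.42. Igf2 gave only 3 UMIs in KO members and 2 in WT members, so a difference was not detectable at this depth. Usp29, Nnat, Phlda2, Zdbf2 and Magel2 were at 0 in all members.

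The growth factor gene Igf1 was higher in members of both libraries. Igf1 (chromosome 10, 87858265 to 87937042), through which stromal cells promote muscle growth, was at 1111 CPM in KO members against 534 CPM in KO Dlk1 0 barcodes (1.06, 0.96 to 1.15) and at 1182 CPM in WT members against 484 CPM in WT Dlk1 0 barcodes (1.29, 1.14 to 1.43). It was detected in 57 of 58 KO and 29 of 30 WT members. Scaled to 10000 UMIs, its lowest, median and highest values were 0, 7.78 and 52.6 in KO members against 0, 3.49 and 64.6 in KO Dlk1 0 barcodes, and 0, 8.34 and 24.4 in WT members against 0, 3.13 and 47.0 in WT Dlk1 0 barcodes. Igf1 overlaps Igf1os on the opposite strand. Of 12 listed genes of the insulin-like growth factor system, 8 were measured in KO, with Igf1 at least 1.5-fold higher and Igfbp6 lower, where 2.97% of all measured genes were higher and 3.1% lower. In WT 9 were measured, with Igf1, Igfbp4, Igfbp7 and Pappa higher and Igfbp6 lower, where 10.3% of all measured genes were higher and 10.3% lower. Igfbp6, a binding protein that prefers IGF2, had ratios of -0.66 in KO and -0.81 in WT. The medians were 0.28 in KO and 0.32 in WT. Of 20 listed muscle, vascular and nerve growth factors, 4 were measured in each library, with Gas6 higher in KO, Fst higher in WT and 0 lower. Of 25 TGF-beta and BMP genes, 14 were measured in KO, with 1 higher and 2 lower, and 16 in WT, with 3 higher and 1 lower.

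Sfrp1, Fzd2 and Gpc3, genes tied to Wnt signalling, were among the 14 genes higher in members of both libraries. The Wnt antagonist gene Sfrp1 was at 740 CPM in KO members against 314 CPM in KO Dlk1 0 barcodes (1.24, 1.11 to 1.36) and at 438 CPM in WT members against 82.0 CPM in WT Dlk1 0 barcodes (2.42, 2.17 to 2.66). Fzd2, a Wnt receptor gene, was at 94.5 CPM in KO members against 45.7 CPM in KO Dlk1 0 barcodes (1.05) and at 84.2 CPM in WT members against 31.7 CPM in WT Dlk1 0 barcodes (1.41). Gpc3, the gene of a cell surface heparan sulfate proteoglycan that binds Wnt and Hedgehog ligands, was at 276 CPM in KO members against 134 CPM in KO Dlk1 0 barcodes (1.04) and at 522 CPM in WT members against 227 CPM in WT Dlk1 0 barcodes (1.20). Of 21 listed Wnt and Hedgehog genes, 7 were measured in KO, with Sfrp1, Sfrp2 and Dkk2 at least 1.5-fold higher and 0 lower. In WT 6 were measured, with Sfrp1 and Dkk2 higher and Sfrp4 lower. The medians were 0.24 in KO and 0.19 in WT. Fzd2 and Gpc3 were not on this list. Over all measured genes, 2.97% were at least 1.5-fold higher and 3.1% lower in KO, and 10.3% each way in WT. Sfrp2 had 432 UMIs in KO members (1.85, 1.70 to 2.00), but its WT ratio of 0.36 (-0.13 to 0.81) rested on 3 of 30 members.

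Trf, which encodes the iron carrier transferrin, was higher in both libraries, at 109 CPM in KO members against 23.5 CPM in KO Dlk1 0 barcodes (2.21, 1.87 to 2.54) and at 595 CPM in WT members against 47.3 CPM in WT Dlk1 0 barcodes (3.65, 3.42 to 3.88). It was found in 16 of 58 KO and 17 of 30 WT members. Matn2, a matrix protein gene, had ratios of 1.07 in KO and 2.22 in WT, Ogfrl1 1.07 and 2.67, and Crispld1 0.94 and 1.66. Slc5a3, the inositol transporter gene, had 1.07 and 3.04, and Mrps6, a mitochondrial ribosomal protein gene, 1.06 and 2.32. Slc5a3 lies within Mrps6 on the same strand, and how reads from the shared stretch were counted was not tested. Ptx3, a soluble pattern recognition gene, had ratios of 1.04 and 1.75 that came from single barcodes: 1 member gave 55.2% of its KO UMIs and 1 gave all of its WT UMIs.

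Genes of the Dpp4+ Pi16+ progenitor state, which is known as a stem-like pool of fibroblasts near larger vessels and fascia, were lower in members. Pi16 (chromosome 17, 29317680 to 29330593), a peptidase inhibitor gene that marks this state, was at 156 CPM in KO members against 629 CPM in KO Dlk1 0 barcodes (-2.01, -2.27 to -1.76). In WT members it was at 56.2 CPM against 805 CPM in WT Dlk1 0 barcodes (-3.84, -4.55 to -3.21). The lowest, median and highest Pi16 values per 10000 UMIs were 0, 0 and 10.6 in KO members against 0, 1.87 and 115 in KO Dlk1 0 barcodes, and 0, 0 and 9.39 in WT members against 0, 1.91 and 118 in WT Dlk1 0 barcodes. No member reached the high values that some Dlk1 0 barcodes held. In thinned barcodes Pi16 was detected in 23.2% of KO members against 48.7% of KO Dlk1 0 barcodes (unthinned 34.5% against 70.6%) and in 13.3% of WT members against 51.5% of WT Dlk1 0 barcodes (unthinned 23.3% against 63.9%), with 1 of 9 KO and 1 of 29 WT in the non-FAP barcodes.

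Dpp4, a surface peptidase gene, was at 29.5 CPM in KO members against 87.1 CPM in KO Dlk1 0 barcodes (-1.56) and at 19.7 CPM in WT members against 111 CPM in WT Dlk1 0 barcodes (-2.50). Smpd3, a sphingomyelinase gene, had ratios of -2.02 in KO and -4.14 in WT, where the members held 3 UMIs. Pcolce2, which enhances procollagen processing, had -1.76 and -3.26, and the phospholipase gene Pla1a -1.59 and -3.74. Cd55, a complement regulator gene, had -1.27 and -1.79, and the semaphorin gene Sema3c -1.24 and -2.23. Of 12 listed progenitor genes, 9 were measured in KO and 7 of these were at least 1.5-fold lower and 0 higher, with a median of -1.24. All 10 measured in WT were lower, with a median of -2.46. Over all measured genes, 3.1% were at least 1.5-fold lower in KO members and 10.3% in WT members. Prg4, the lubricin gene, had -1.08 in KO and -1.56 in WT, and Nbl1, which encodes a BMP antagonist, -1.36 and -1.18.

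The interstitial FAP genes, which mark matrix-rich fibroblasts among the fibres, were higher in WT members, and in KO members a single one passed the criterion. Of 10 measured in WT, 8 (Apod, Cxcl14, Hsd11b1, Col15a1, Mme, Smoc2, Lpl and Nmb) were at least 1.5-fold higher and Ifi205 was lower, with a median of 1.21. Of 8 measured in KO, Cxcl14 alone passed, at 1.5-fold, with a median of 0.34 and 0 lower. Over all measured genes the same criterion was met by 2.97% upward and 3.1% downward in KO, and by 10.3% each way in WT. The lipocalin gene Apod was at 2381 CPM in KO members against 1601 CPM in KO Dlk1 0 barcodes (0.57) and at 12179 CPM in WT members against 1184 CPM in WT Dlk1 0 barcodes (3.36). A single WT member gave 26.2% of these Apod UMIs.

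Few genes tied to DLK1 signalling were measured. Of 14 Notch receptors, ligands and targets, 2 were measured in KO with 0 past 1.5-fold, and 3 in WT, where the receptor gene Notch2 (-0.89) and the effector gene Rbpj, at 56.2 CPM in members against 112 CPM in Dlk1 0 barcodes, were lower. Among 6 known partners and downstream genes of DLK1, 3 were measured in KO with 0 past 1.5-fold. Of 4 measured in WT, Sox9, a transcription factor gene that DLK1 is known to induce in preadipocytes, was higher (3.20, 2.74 to 3.64) and Fn1, which encodes a DLK1 binding protein, was lower (-1.11). Sox9 did not reach the measured level in KO, where it stood at 41.3 CPM in members against 19.9 CPM in Dlk1 0 barcodes (1.05, 0.51 to 1.56). Of 18 regulators of adipocyte differentiation, 9 were measured in KO, with 0 higher and Klf9, Klf4 and Zbtb16 lower. In WT 11 were measured, with Cebpb, Ebf2 and Sox9 higher and Klf4 and Zbtb16 lower. The medians were -0.31 in KO and -0.30 in WT. Of 14 activated fibroblast matrix genes, 8 were measured in KO, where Postn (1.19), Tnc (2.04) and Cdh11 were higher and 0 lower. In WT 6 were measured, with Postn (0.93) and Sparc higher and Fn1 and Aspn lower. Postn came from 3 of 30 WT members. Over all measured genes the shares past 1.5-fold were 2.97% higher and 3.1% lower in KO, and 10.3% each way in WT, against which all 4 of these lists are to be read.

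Levels were also followed over the number of Dlk1 UMIs a barcode held, in the classes 0, 1, 2, 3 to 4, 5 to 9 and at least 10. Meg3 stood at 946, 1792, 1690, 4075, 2788 and 5807 CPM over these classes in KO and at 593, 1923, 2661, 1694, 2780 and 2342 CPM in WT. Every class with a Dlk1 UMI lay above the class with 0, including barcodes with 1 or 2 UMIs, which the rule left out. Plagl1 stood at 85.1, 103, 103, 146, 151 and 378 CPM in KO and at 36.4, 63.7, 92.0, 54.4, 160 and 100.3 CPM in WT. Mest stood at 45.7, 84.5, 169, 100.0, 56.3 and 371 CPM in KO and at 27.2, 104, 151, 707, 660 and 387 CPM in WT, so the KO and WT members differed most in the middle classes. Pi16 ran the other way, at 629, 288, 342, 58.3, 119 and 289 CPM in KO and at 805, 239, 83.7, 36.2, 84.8 and 50.1 CPM in WT. All Dlk1 classes lay below the class with 0, with no steady order among them. Barcodes with 1 or 2 Dlk1 UMIs had a median depth of 17776 UMIs in KO and 9386 UMIs in WT, and the part of depth in these levels was not tested.

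**Figure D4:**
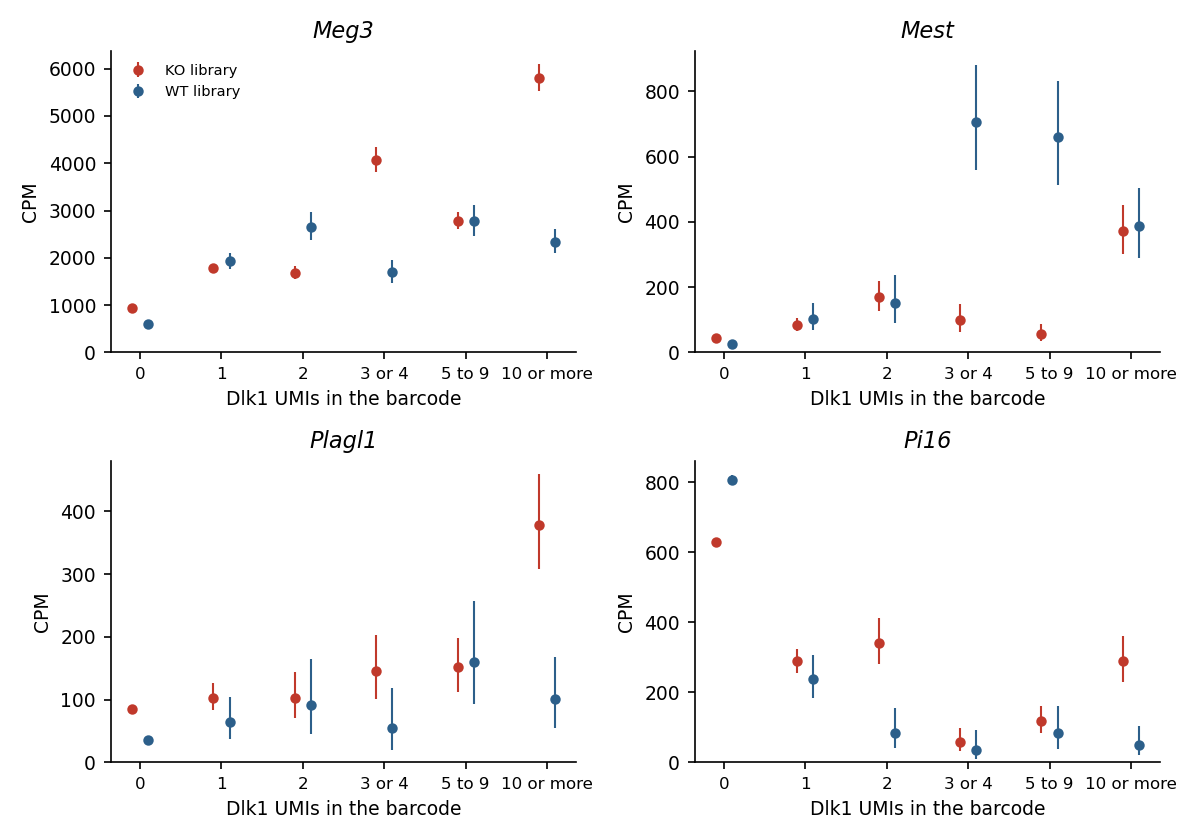
CPM (linear scale) of Meg3, Mest, Plagl1 and Pi16 in classes of barcodes by Dlk1 UMIs, from 0 to at least 10, in the KO (red) and WT (blue) libraries, with exact Poisson 95% intervals. Meg3 is higher in every class with Dlk1 UMIs than in the class with 0, and Pi16 is lower.

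The members lay in different expression states in the 2 libraries. Barcodes of both libraries were clustered together without Dlk1, Meg3 and Mirg, which gave 12 clusters. Of the WT members 17 (56.7%) fell in cluster 1, which held 7.50% of WT barcodes, and 7 in cluster 0. Of the KO members 36 (62.1%) fell in cluster 2, which held 30.7% of KO barcodes, 7 in cluster 1, 7 in cluster 3 and 3 or fewer in any other. Members were 12.3% of the 57 KO barcodes of cluster 1 (5.08 to 23.7%) and 14.8% of its 115 WT barcodes (8.85 to 22.6%), higher than the 4.04% and 1.96% over all barcodes. Cluster 1 was led by Dlk1, which had no part in the clustering, and by Trf, Spon1, Apoe, Mest, Hsd11b1, Nmb and Apod. Cluster 2 was led by the chemokine genes Cxcl10, Ccl2, Cxcl9 and Ccl7 and held 441 KO but only 9 WT barcodes, so in that cluster the library and a cell state cannot be told apart. Cluster 3 was led by Postn, Nrep, Cilp and Col3a1. The clusters were given no cell type names.

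**Figure D5:**
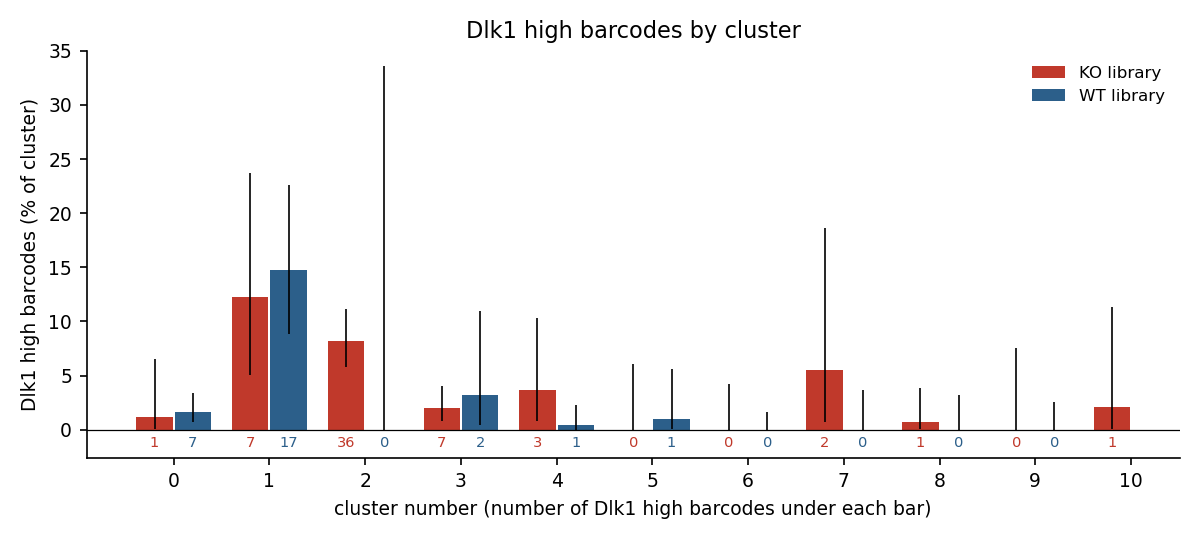
Share of barcodes that are Dlk1 high in each cluster (percent, with exact 95% intervals) in the KO and WT libraries, with the number of members under each bar. Cluster 11, with 1 KO and 12 WT barcodes of which 2 WT barcodes are members, is not drawn. Cluster 1 has 12.3% in KO and 14.8% in WT, and cluster 2 has 8.16% in KO and 0 of 9 barcodes in WT.

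Meg3 and Plagl1 were higher in members within every cluster that held at least 7 members. The log2 ratios of Meg3 were 1.29, 1.75 and 2.47 in clusters 1, 2 and 3 of the KO library and 1.58 and 2.01 in clusters 0 and 1 of the WT library. Plagl1 had 1.68, 1.17 and 1.89 in these KO clusters and 1.72 and 2.01 in the WT clusters. Mest had 2.03, 0.44 and 1.08 in KO and 2.68 and 3.84 in WT, so its KO ratio was small in the cluster with most members, where the interval was -0.14 to 0.97. Igf1 had 1.11, 0.82 and 0.39 in KO and 1.06 and 0.95 in WT. Peg3 was lower in members of KO cluster 1 (-2.11, from 2 UMIs) and had 1.31 and 0.69 in KO clusters 2 and 3 and 0.72 and 0.58 in the WT clusters. Pi16 had ratios of -0.96 and -0.42 in KO clusters 2 and 3 and -1.96 in WT cluster 0, with 0 UMIs in members of KO cluster 1 and 1 UMI in members of WT cluster 1.

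When the Dlk1 0 barcodes were weighted to the cluster makeup of the members, the genes at least 2-fold higher in both libraries numbered 6, of which 5 (Meg3, Mest, Plagl1, Trf and Matn2) were among the 14. Meg3 then had ratios of 1.94 in KO and 1.48 in WT, Mest 1.77 and 3.25, and Plagl1 1.51 and 1.71. Igf1 was below 2-fold, at 0.90 in KO and 0.84 in WT, and Peg3 in WT was at 0.60. Of the 13 lower genes only Pi16 stayed past 2-fold in both libraries, at -1.08 in KO and -2.14 in WT in place of -2.01 and -3.84, while Cd55 was at -0.30 and -0.41 and Sema3c at -0.08 and -0.09. Without the member that held most of its UMIs, taken gene by gene, 6 of the 14 (Meg3, Mest, Peg3, Plagl1, Sfrp1 and Trf) remained 2-fold higher in both libraries. That step can only lower a member sum.

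Members of the KO library were then set beside members of the WT library. Of 3006 measured genes, 171 (5.69%) were at least 2-fold higher in KO members and 154 (5.12%) at least 2-fold lower. Between the Dlk1 0 barcodes of the libraries, where sums are far larger, 53 of 2945 (1.8%) were higher in KO and 36 (1.22%) lower. The imprinted genes were mixed: Meg3 had a KO over WT ratio of 0.86 in members against 0.67 in Dlk1 0 barcodes, Plagl1 1.10 against 1.23, Peg3 -0.01 against -0.02, Igf1 -0.09 against 0.14 and Mest -1.75 against 0.75. Thinning to 5000 UMIs before the rule moved the Mest ratio in members to -0.04. Meg3 and Plagl1 were thus higher in KO in both classes, while Peg3 and Igf1 had ratios near 0 over all members.

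Single inflammatory genes were among those higher in KO members, and several rested on few barcodes. Mmp3, a matrix metalloproteinase gene, was at 435 CPM in KO members against 5.62 CPM in WT members (6.27), and its ratio in Dlk1 0 barcodes was 2.48. The interferon-induced chemokine gene Cxcl9 was at 266 CPM in KO members against 2.81 CPM in WT members (6.56), with 6.60 in Dlk1 0 barcodes. Ccl2, a monocyte chemokine gene, had 391 UMIs in KO members, all from 3 barcodes, and 0 in WT members, which is at least 54.8-fold higher against a floor of 3 UMIs over the WT members. Bc1, a small noncoding RNA gene, was at 1046 CPM in KO members against 16.8 CPM in WT members (5.96), with 2.79 in Dlk1 0 barcodes. Of 20 interferon-induced genes 6 were measured and 4 (Isg15, Ifit3, Bst2 and Iigp1) were at least 1.5-fold higher, with a median of 2.25, though 1 member gave 54.1% of the KO Isg15 UMIs and 1 gave 53% of Ifit3. Between Dlk1 0 barcodes 4 of 5 interferon-induced genes were higher in KO, with a median of 1.25. At 1.5-fold, 14.4% of all measured genes were higher in KO members and 12.9% lower. Of 11 class I antigen presentation genes 5 were measured in members and 4 were higher, with a median of 1.31, and between Dlk1 0 barcodes 4 of 6 were higher, with a median of 0.84. Of 11 measured chemokines and cytokines, 4 (Cxcl9, Ccl2, Ccl8 and Csf1) were higher and 2 (Cxcl14 and Ccl11) lower in KO members, with a median of -0.03.

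Matrix genes of activated fibroblasts were higher in KO in both classes of barcodes. Of 8 measured in members, Postn, Tnc, Fn1, Cdh11 and Aspn were at least 1.5-fold higher and 0 lower, with a median of 1.60. Between Dlk1 0 barcodes 4 of 6 (Postn, Lox, Sparc and Fn1) were higher in KO and 0 lower, with a median of 0.81. Over all measured genes, 14.4% were at least 1.5-fold higher in KO members and 12.9% lower. The same shares between Dlk1 0 barcodes were 5.09% and 4.21%. Whether members differ from Dlk1 0 barcodes in this was not tested. Aspn, a small proteoglycan gene, was at 502 CPM in KO members against 73.0 CPM in WT members (2.78), while its ratio in Dlk1 0 barcodes was -0.10. Cd248, a stromal surface gene, was at 265 CPM in KO members against 33.7 CPM in WT members (2.97), with 0.02 in Dlk1 0 barcodes. Of 7 measured progenitor genes 5 were higher in KO members and Ugdh was lower. Pi16 was at 156 CPM in KO members against 56.2 CPM in WT members (1.47, 0.79 to 2.23), with -0.36 in Dlk1 0 barcodes.

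Interstitial and glucocorticoid-responsive genes were lower in KO members. Apod had a ratio of -2.35 in members and 0.44 in Dlk1 0 barcodes. Of 9 measured interstitial genes 7 were at least 1.5-fold lower and 0 higher, with a median of -1.25. Over all genes measured in members, 12.9% were at least 1.5-fold lower in KO and 14.4% higher. Inmt, a methyltransferase gene, had 1 UMI in KO members and 53 UMIs in WT members (-6.98, -12.3 to -4.44), with -2.36 in Dlk1 0 barcodes. The retinol carrier gene Rbp4 was at 55.5 CPM in KO members against 404 CPM in WT members (-2.87), with -0.73 in Dlk1 0 barcodes. Of 10 measured glucocorticoid-responsive genes 6 (among them Zbtb16, Klf9, Fkbp5 and Tsc22d3) were lower and Mt2 was higher, with a median of -1.75. In Dlk1 0 barcodes 7 of 11 were lower, with a median of -1.18, where 5.09% of all measured genes were at least 1.5-fold higher in KO and 4.21% lower. Of 16 measured immediate early genes 11 were lower in KO members, with a median of -0.73, and 11 of 16 were lower in KO Dlk1 0 barcodes, with a median of -0.77.

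Cluster 1 was the only cluster with at least 7 members in both libraries, and several of these ratios were smaller within it or ran the other way. Between its 7 KO and 17 WT members, Apod was at 11206 CPM in KO against 17278 CPM in WT (-0.62), Rbp4 had -0.56 (-1.33 to 0.15), and Meg3 had 0.11 (-0.13 to 0.34). Igf1 stood at 0.05 (-0.29 to 0.39). Mmp3, Ccl2 and Comp were at 0 in both. Peg3 had -3.16 (-6.24 to -1.24), from 2 KO UMIs. Aspn had 0 UMIs in KO and 19 UMIs in WT members of the cluster (at most -0.99), and Angptl7, a secreted protein gene with -3.00 over all members, had 5.37 (2.64 to 10.8). Bc1 kept a ratio of 6.03, and Trf had -1.47 (-2.16 to -0.84). Over all members, cluster makeup and differences within a cluster cannot be told apart.

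Barcodes with endothelial, mural, myeloid, lymphoid, satellite cell or Schwann cell markers were left out as an alternative. This gave 11 genes at least 2-fold higher and 18 lower in both libraries, against 14 and 13. Tenocyte markers had no part in that step. Meg3, Mest, Peg3 and Plagl1 were among the 11, and Pi16, Dpp4 and Smpd3 among the 18.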

How the data were processed

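The members and the gene lists were chosen with earlier results of these data known. The authors deposited 1 matrix of raw UMI counts per group. Cell Ranger 3.0.0, Seurat and mm10 are named in the submitters' processing notes, and the matrix headers give 3.0.2 as the software version. The protocol in the labels aimed at about 8000 cells, and 1724 KO and 2073 WT barcodes were deposited, with 21476948 and 17642513 UMIs. Coordinates are those of GENCODE vM21 (GRCm38), matched for 31011 of 31053 gene IDs.

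Counts were summed per class of barcodes and given as CPM. Log2 ratios have conditional binomial intervals and shares have Clopper-Pearson intervals. A count of 0 was taken to allow 3 counts. Shares of barcodes with a UMI were computed after thinning to 3000 UMIs. Genes named were the first 15 in each direction by the smaller of both libraries' ratios, the first 12 in each direction between KO and WT members by the interval bound nearest 0, members of each list by abundance and ratio, and all imprinted genes listed. Clusters were Leiden clusters (scanpy 1.11.5; 2000 variable genes, 30 components, 15 neighbours, resolution 0.8). Scrublet marked few barcodes. Per the labels' protocols the sort gated out doublets, and whether that bears on the few calls was not tested. The summing and intervals were tested on simulated Poisson counts, the model that the intervals assume, so spread between barcodes was not part of that test. Part of 1 marker list is not reported here.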

Additional observations from a re-analysis of the deposited data

Results flagged for a closer look

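Genes whose ratios pointed opposite ways in the 2 libraries, or in the 2 classes of barcodes, are given here, and none of these differences was tested. For Dlk1 high over Dlk1 0 barcodes, Bc1 had a log2 ratio of 1.95 in KO and -1.21 in WT. Ccl2 had 1.14 in KO, from 3 members, and at most -2.15 in WT, where members held 0 UMIs. Comp, which encodes a cartilage matrix protein, had 1.25 in KO, with 88.5% of its UMIs in 1 member, and at most -3.23 in WT, where members held 0 UMIs. Clu, which encodes the chaperone clusterin, had 1.26 in KO and -0.90 in WT. Serpine2, a protease inhibitor gene, had -0.74 in KO and 1.07 in WT.

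For KO over WT, the chemokine gene Cxcl14 had a log2 ratio of -1.49 in Dlk1 high barcodes and 0.88 in Dlk1 0 barcodes. Col18a1, a basement membrane collagen gene, had -1.17 in Dlk1 high barcodes and 0.63 in Dlk1 0 barcodes, Clu had 1.06 and -1.11, and Comp at least 3.75 and -0.73.

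Among barcodes without a Pdgfra UMI, which the comparisons leave out, 9 of 149 KO barcodes (6.04%, 2.80 to 11.2%) and 3 of 264 WT barcodes (1.14%, 0.235 to 3.28%) held a Dlk1 UMI, at median depths of 3460 and 3200 UMIs. At least 3 Dlk1 UMIs stood in 2 of the 149 KO barcodes and in 0 of the 264 WT barcodes.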

How the results depend on the processing

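No paired analysis was possible because each group is 1 pooled matrix whose barcodes carry no replicate number, and no replicate could be left out for the same reason. Depth and the number of members limit the precision, most of all in WT, and a group difference has no replicate check. Meg3, Mest, Plagl1 and Trf stayed at least 2-fold higher in both libraries under all 15 alternatives run for them. Those with a lower measured level or a smaller size criterion change only which genes are counted. Such alternatives leave each ratio as it was, so they are no check of these genes. Meg3 ran from 1.86 to 2.28 in KO and from 1.48 to 2.09 in WT. Mest ran from 1.15 to 2.67 in KO and from 3.25 to 4.47 in WT. Plagl1 ran from 1.15 to 1.68 in KO and from 1.11 to 1.79 in WT. Peg3 ran from 1.27 to 1.54 in KO and from 0.60 to 1.82 in WT. Of 121 values past 2-fold among the named genes, 116 stayed so under the stricter barcode filter, 96 with at least 2 Dlk1 UMIs and 103 without the top member. With Dlk1 0 barcodes weighted to the members' clusters 44 of 82 stayed so, and with WT members weighted to the KO clusters 30 of 39. The causes of the shifts below were not tested except where the construction shows them.

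Counts are given here as higher and lower, in place of 30 and 19 in KO, 118 and 110 in WT, 14 and 13 in both, and 171 and 154 for KO over WT members. A 1.5-fold criterion gave 89 and 93, 304 and 303, 32 and 53, and 432 and 388. A mean of at least 20 CPM gave 71 and 52, 274 and 253, 29 and 26, and 422 and 373. No filter beyond 3 UMIs, which tests more genes at lower counts, gave 1133 and 646, 1538 and 914, 305 and 96, and 1280 and 1236. Weighting Dlk1 0 barcodes to the members' clusters gave 19 and 3, 71 and 44, and 6 and 1, and 0.16 for Prg4 in WT. Weighting WT members to the KO clusters, possible for 18 of 58 KO members, gave 271 higher in KO, and turned Prg4 (-0.44), Postn (-0.45) and Angptl7 (0.0025). At least 2 Dlk1 UMIs gave 13 higher in KO and 7 in both, with Clu at -0.98 for KO over WT. At least 5 gave a KO share of 2.58%, 31 lower in KO, and Comp at -1.53 and Clu at -0.27 in KO, Ptx3 at -1.93 in WT and Clu at -0.30 for KO over WT. Thinning to 5000 UMIs before the rule gave a KO share of 1.90%, 48 and 34 in KO and 23 higher in both, with Ptx3 at -3.56, Comp at -3.01 and Clu at -0.64 in KO, Ptx3 at -1.75 in WT and Clu at -0.41 for KO over WT. Leaving out barcodes with endothelial, mural, immune, satellite cell or Schwann cell markers gave 34 lower in KO, with Ccl2 at -6.02 and Comp at -2.61 there. Leaving out, per gene, the member with most UMIs, an alternative chosen after seeing the data, gave 12 higher in KO, 169 lower in WT, and 6 and 23 in both, with Ptx3 at -0.091, Ccl2 at -0.29 and Comp at -1.84 in KO and Ptx3 at -2.41 in WT. Thinning to 5000 in place of 3000 UMIs moved the share of members with a UMI to 96.2% for Igf1 in KO and 71.4% for Sfrp1 in WT. Leaving out barcodes found in both libraries, also chosen after seeing the data, kept 119 of the 121 values past 2-fold.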
